A study of Homo sapiens with 16 samples.

Results

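The change of gene expression with culture time was followed in Kelly cells that received only the solvent DMSO. It rests on 4 of the 16 RNA-seq libraries of the series, chosen by their labels: 2 libraries taken at day 5 and 2 taken at day 2. Kelly is a human neuroblastoma cell line with amplified MYCN. The other 12 libraries came from Kelly cells given GSK126, which blocks the histone methyltransferase EZH2, at 2 uM for 5 or 2 days, and from LAN-1, another neuroblastoma line with amplified MYCN, given GSK126 or DMSO for the same times. The question was which genes move with time alone in the drug study's control arm. All 4 libraries come from 1 cell line in DMSO, so days in DMSO and days in culture cannot be told apart. How the cells were seeded, passaged and fed between day 2 and day 5 is not given in the sources used here. Replicates 1 and 2 of each day are not stated to be separate cultures. The p-values rest on the spread between duplicate libraries, estimated over all 8 groups of the 16 libraries and not over these 4 alone. That spread may therefore be technical.

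Neuroblastoma arises from the sympathoadrenal lineage of the neural crest. Its adrenergic cells keep a circuit of transcription factors, among them HAND1, HAND2, GATA2, GATA3, TBX2 and INSM2, together with the enzymes of noradrenaline synthesis. RET, the receptor of the GDNF family of growth factors, is part of the same programme and relays signals for growth and differentiation. Plexins and UNC5 proteins, receptors of guidance cues, and BMP signals through SMAD proteins act in the same lineage as its cells migrate and mature.

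At day 5 the DMSO cultures expressed less of 24 genes than at day 2, among them the receptors RET, EGFR and PLXNA4 and the transcription factors HAND1, TBX2 and TBX3. They expressed more of 28 genes, among them the monoamine-degrading enzyme MAOA, the vesicle protein CHGB, the imprinted genes DLK1 and IGF2 and the collagens COL6A2 and COL18A1. RET was at 0.472 times and the semaphorin receptor PLXNA4 at 0.468 times its day 2 level, and MAOA rose 1.59-fold. The test called 52 of 11863 genes at an adjusted p under 0.05 (edgeR quasi-likelihood test, Benjamini-Hochberg), which is 0.438% of the genes tested. Of these, 28 were higher at day 5 (0.236%) and 24 were lower (0.202%), and for all 52 the libraries of day 5 and of day 2 did not overlap. The absolute log2 fold changes ran from 0.33 to 1.83 with a median of 0.65, and 7 of the rises and 3 of the falls were over 2-fold. At an unadjusted p under 0.05 there were 914 genes, or 7.70%. All adjusted p-values below come from this edgeR model, fitted over the 16 libraries and adjusted over the 11863 genes. Levels are given in CPM, the count per 1e+06 counts of the TMM-scaled library total. Fold changes are given on the log2 scale as estimate ± standard error, for n = 2 libraries per day. The standard error was derived from the test, as the absolute estimate divided by the square root of its F statistic. It thus rests on the spread over the 16 libraries.

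Depth and the libraries set the limits. The day 5 libraries held 1335222 and 1666190 counts, and the day 2 libraries 1102922 and 1638507. A gene with no read could have had up to 3 counts, which is 1.82 to 2.24 CPM at day 5 and 1.85 to 2.70 CPM at day 2. Among the 8 Kelly libraries, the second principal component, with 14.6% of the variance, set replicate 1 of day 2 (26.6) apart from its duplicate (-6.27). The squared differences between the duplicates were 1.24 times counting error on average at day 5 and 1.84 times at day 2. Across genes, which are not independent replicates, the difference between the day 2 duplicates followed gene GC content with a Spearman correlation of -0.34, against -0.13 between those of day 5. Counting with a per-library GC term called 108 genes (0.91% of those tested), 54 in each direction, and kept 51 of the 52. Leaving out day 5 replicate 1 left 8 calls, and leaving out any other of the 4 libraries left 37 to 40. DESeq2 called 15 of the 52, put 17 at an adjusted p over 0.05 (0.0677 to 0.655) and gave 20 none. RET, PLXNA4, MAOA and EGFR were called whichever library was left out, and their positions on GRCh37 are chromosome 10:43572512-43625799, 7:131808099-132333447, X:43514155-43606064 and 7:55086710-55279321. Exons of 12 of the 52 overlap another gene of the table (among them EGFR, DOK4, IGF2, CCND1, ENC1, STRA6, COL18A1, GATA2, DNAJB1, GATC and RTL1), and with no strand setting given their reads may be shared with it.

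The cells carried the label's identity. All 8 adrenergic neuroblastoma markers were present at both days, with summed levels of 5814 and 5943 CPM at day 5, against 5586 and 6146 CPM at day 2. MYCN had 2399 and 2616 CPM at day 5, against 2744 and 2874 CPM at day 2 and was not called (log2 fold change -0.16 ± 0.08, adjusted p = 0.576), although the fit with the GC term put it lower at day 5 (log2 fold change -0.21, adjusted p = 0.0414). Markers of other cell types were mixed. No read was found for SOX10 or S100B of Schwann cells, PTPRC of blood cells, PECAM1 of endothelium or CDH1 of epithelium, and none for COL1A2, DCN, FAP or POSTN of fibroblasts. The blood, epithelial and endothelial lists each summed to 3.74 to 9.12 CPM at day 5, against 1.80 to 8.98 CPM at day 2. The Schwann cell list summed to 65.8 and 59.6 CPM at day 5, against 44.02 and 68.6 CPM at day 2, mostly PMP22, a myelin protein (50.8 and 48.0 CPM at day 5, against 37.7 and 56.3 CPM at day 2). Of the fibroblast list, PDGFRB, THY1 (52.3 and 50.5 CPM at day 5, against 41.3 and 51.3 CPM at day 2) and COL1A1 (29.9 and 20.1 CPM at day 5, against 9.88 and 13.0 CPM at day 2) had reads in every library. So did, at low levels, COL3A1 (8.22 and 6.08 CPM at day 5, against 5.39 and 1.24 CPM at day 2) and PDGFRA (5.98 and 0.608 CPM at day 5, against 0.898 and 2.47 CPM at day 2). The sum of the fibroblast list was higher in both day 5 libraries (170 and 151 CPM) than in both day 2 libraries (97.9 and 127 CPM). The part of these marker levels in the time changes was not tested.

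The start sites of RET, EGFR, PLXNA4 and MAOA are shown because these genes were called whichever library was left out. RET, EGFR and PLXNA4 fell and MAOA rose. The sequences are the 250 bases before the RefSeq start on GRCh38.p14, 5′ to 3′ on the gene's strand, with matches to the searched motifs in capitals. RET lies on the plus strand (chr10:43076819-43077068), EGFR on the plus strand (chr7:55018767-55019016), PLXNA4 on the minus strand (chr7:132576471-132576720) and MAOA on the plus strand (chrX:43656049-43656298).
RET: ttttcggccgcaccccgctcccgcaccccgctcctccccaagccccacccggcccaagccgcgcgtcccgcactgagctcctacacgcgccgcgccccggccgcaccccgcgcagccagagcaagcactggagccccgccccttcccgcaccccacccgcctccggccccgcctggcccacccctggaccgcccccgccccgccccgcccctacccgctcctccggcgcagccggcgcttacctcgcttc
EGFR: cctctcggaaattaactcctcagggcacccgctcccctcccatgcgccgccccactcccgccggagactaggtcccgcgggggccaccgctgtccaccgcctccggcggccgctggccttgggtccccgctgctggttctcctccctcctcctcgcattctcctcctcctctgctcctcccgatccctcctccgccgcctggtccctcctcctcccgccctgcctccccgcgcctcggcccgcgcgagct
PLXNA4: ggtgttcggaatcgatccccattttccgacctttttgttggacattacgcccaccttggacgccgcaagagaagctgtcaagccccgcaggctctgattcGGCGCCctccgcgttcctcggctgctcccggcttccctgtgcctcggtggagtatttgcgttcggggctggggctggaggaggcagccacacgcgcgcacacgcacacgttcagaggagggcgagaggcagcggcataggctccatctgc
MAOA: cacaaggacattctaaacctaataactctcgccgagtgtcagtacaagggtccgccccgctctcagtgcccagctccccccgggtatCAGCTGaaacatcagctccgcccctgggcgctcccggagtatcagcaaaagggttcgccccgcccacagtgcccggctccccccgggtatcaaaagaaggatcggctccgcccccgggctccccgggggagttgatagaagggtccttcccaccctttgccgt
Both strands were searched for CAGCTG and CACGTG (E-boxes, the second of the kind bound by MYC proteins), GGCGCC (bound by SMADs that BMP receptors activate), TGACGTCA (the cyclic AMP response element) and TATAAA (the TATA box), none of which overlaps another as a motif. In windows from 250 bases before to 50 after the start, available for 37 of the 52 genes, GGCGCC was found in 25% of 16 genes that fell and 28.6% of 21 that rose, against 19.2% of all 35116 promoters. CAGCTG was found in 18.8% of the falling and 9.52% of the rising genes, against 17.9% of all. CACGTG was in 0% of the falling and 14.3% of the rising genes (7.26% of all), TATAAA in 0% and 19% (11.5% of all) and TGACGTCA in 0% and 4.76% (1.85% of all). These shares rest on 0 to 6 genes each, and no difference between them was tested. The windows of the called genes were richer in GC, with a median of 69% for the falls and 66% for the rises, against 58.7% for all promoters. The shares were not adjusted for GC content, and all promoters include those of genes that were not tested here. A match is a description of letters, not of binding.

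The receptor tyrosine kinases RET and EGFR fell, and 3 other called falls were genes of growth factor signalling, a grouping made from the called genes. RET had 91.2 and 92.4 CPM at day 5, against 187 and 201 CPM at day 2 (log2 fold change -1.08 ± 0.12, adjusted p = 2.82e-10). Both day 5 libraries lay at about the same level and far under both day 2 libraries. EGFR, the receptor of epidermal growth factor, had 56.8 and 71.1 CPM at day 5, against 119 and 122 CPM at day 2 (log2 fold change -0.90 ± 0.15, adjusted p = 2.01e-05). DOK4, a docking protein that binds activated RET and the insulin receptor, had 354 and 409 CPM at day 5, against 586 and 574 CPM at day 2 (log2 fold change -0.60 ± 0.10, adjusted p = 4.91e-05), again with no overlap. CCND1, the cyclin D1 that growth factor signals induce for entry into S phase, had 410.3 and 449.9 CPM at day 5, against 538 and 602 CPM at day 2 (log2 fold change -0.41 ± 0.09, adjusted p = 0.00646). MAP3K1, a kinase upstream of JNK and ERK, had 135 and 148 CPM at day 5, against 191 and 195 CPM at day 2 (log2 fold change -0.45 ± 0.12, adjusted p = 0.0498). Of 26 receptor tyrosine kinases tested, a list written after the values were seen, RET and EGFR fell and none rose. The median of that list was 0.14, against 0 for all genes, and PDGFRB stood at 71.7 and 72.3 CPM at day 5 and 40.4 and 58.1 CPM at day 2 without passing the test (log2 fold change 0.51 ± 0.18, adjusted p = 0.293). Of 26 tested immediate early and ERK feedback genes none was called, with 12 positive and 14 negative values and a median of -0.04. The growth factor gene HBEGF stood higher without passing (log2 fold change 1.92, adjusted p = 0.053) and was called higher with the GC term (1.90, adjusted p = 0.0333). Calls were lost (adjusted p in brackets) without day 5 replicate 1 for DOK4 (0.0613), CCND1 (0.465) and MAP3K1 (0.645); without day 5 replicate 2 for MAP3K1 (0.138); without day 2 replicate 1 for MAP3K1 (0.148); without day 2 replicate 2 for CCND1 (0.2) and MAP3K1 (0.217). DESeq2 did not call MAP3K1 (adjusted p = 0.308).

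**Figure D1:**
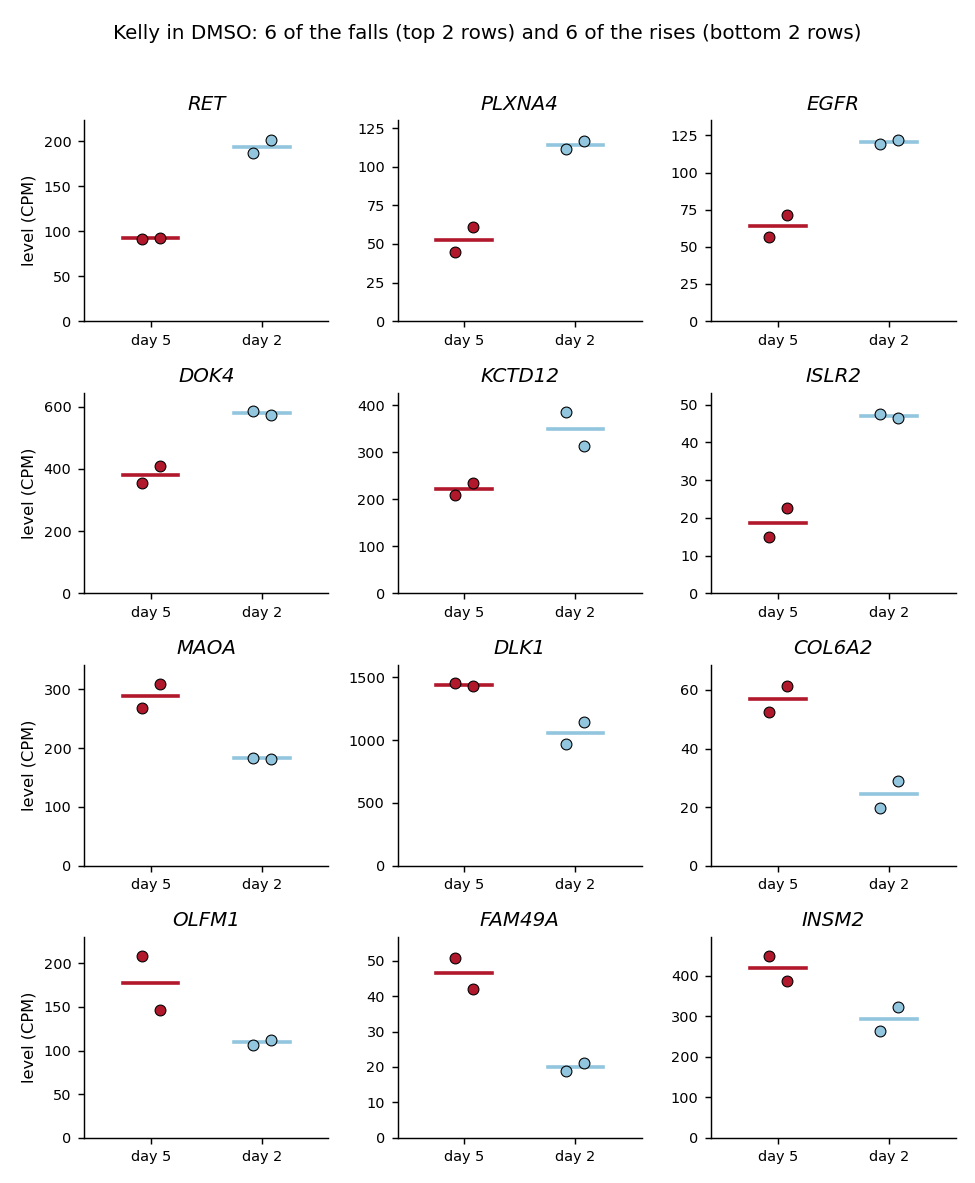
Levels in CPM (linear axes that start at 0) of 6 of the falls and 6 of the rises in Kelly cells in DMSO, with day 5 on the left and day 2 on the right of each panel. Points are libraries and bars are means of 2, and in every panel the points of the days do not overlap, as for RET with 91.2 and 92.4 CPM at day 5 against 187 and 201 CPM at day 2.

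Transcription factors of the adrenergic circuit moved both ways. Among 25 tested adrenergic core factors, 4 fell (among them HAND1, TBX2 and GATA2) and 1 rose, and the median log2 fold change was -0.02. HAND1, a basic helix-loop-helix factor of the sympathetic lineage, had 277 and 306 CPM at day 5, against 419 and 413 CPM at day 2 (log2 fold change -0.51 ± 0.10, adjusted p = 0.000879). TBX2, a T-box repressor tied to proliferation in neuroblastoma, had 229 and 288 CPM at day 5, against 357 and 365 CPM at day 2 (log2 fold change -0.47 ± 0.10, adjusted p = 0.00518). TBX3, its neighbour in the family but outside the list of adrenergic core factors, had 295 and 289 CPM at day 5, against 396 and 413 CPM at day 2 (log2 fold change -0.47 ± 0.10, adjusted p = 0.00199). These were the called members of 5 T-box genes tested, a list written after the values were seen, and MGA, TBX18 and TBX20 lay between -0.03 and 0.11. GATA2 showed the smallest change of all 52 genes, with 1001 and 1039.5 CPM at day 5, against 1167 and 1394 CPM at day 2 (log2 fold change -0.33 ± 0.08, adjusted p = 0.0353). INSM2, a zinc-finger factor of neuroendocrine cells, was the rise of the group, with 449 and 387 CPM at day 5, against 264 and 322 CPM at day 2 (log2 fold change 0.50 ± 0.10, adjusted p = 0.00126). For both, the libraries of the days did not overlap. HAND2 stood higher without passing the test (1009.7 and 899.7 CPM at day 5 and 719.6 and 819 CPM at day 2, log2 fold change 0.31 ± 0.08, adjusted p = 0.065). CUX2, a homeobox factor of developing neurons also outside the adrenergic list, fell to 92.7 and 93.6 CPM at day 5, against 121 and 145 CPM at day 2 (log2 fold change -0.53 ± 0.13, adjusted p = 0.0353). Calls ended (adjusted p in brackets) without day 5 replicate 1 for HAND1, TBX2, TBX3, GATA2, INSM2 and CUX2 (0.0829 to 0.685); without day 5 replicate 2 for TBX3 (0.0676), GATA2 (0.142) and CUX2 (0.227); without day 2 replicate 1 for INSM2 (0.162); without day 2 replicate 2 for TBX2, TBX3, GATA2 and CUX2 (0.0632 to 0.511). With DESeq2, GATA2 (adjusted p = 0.196), INSM2 (adjusted p = 0.0947) and CUX2 (adjusted p = 0.172) were not called.

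Of the axon guidance receptors, PLXNA4, PLXNA2 and UNC5B fell and EPHB3 rose. Plexins bind semaphorins, UNC5 proteins bind netrins, and both steer growing axons and migrating neural crest cells. PLXNA4 had 44.8 and 60.8 CPM at day 5, against 111 and 117 CPM at day 2 (log2 fold change -1.10 ± 0.16, adjusted p = 1.79e-06). PLXNA2 had 138 and 189 CPM at day 5, against 235 and 262 CPM at day 2 (log2 fold change -0.60 ± 0.11, adjusted p = 0.000745). UNC5B had 342 and 358 CPM at day 5, against 453 and 489 CPM at day 2 (log2 fold change -0.43 ± 0.10, adjusted p = 0.0115). In all 3 receptors each day 5 library lay below each day 2 library. ISLR2, a leucine-rich repeat membrane protein that promotes axon extension, had the steepest fall of the 52 genes, with 14.9 and 22.5 CPM at day 5, against 47.6 and 46.4 CPM at day 2 (log2 fold change -1.29 ± 0.25, adjusted p = 0.000699). EPHB3, a receptor of ephrin-B ligands, went the other way with 135 and 152 CPM at day 5, against 92.5 and 101 CPM at day 2 (log2 fold change 0.56 ± 0.14, adjusted p = 0.0211). The 29 tested plexins, neuropilins and semaphorins, listed after the values were seen, held 2 falls and no rise at a median of 0.08. Neighbours in the family had positive values that did not pass, such as SEMA3F (0.76 ± 0.23, adjusted p = 0.127) and NRP2 (0.43 ± 0.16, adjusted p = 0.364). The 30 tested ephrin, Eph, netrin and Slit genes held 1 rise and 1 fall at a median of 0.04. The adjusted p, in brackets, missed 0.05 without day 5 replicate 1 for PLXNA2, UNC5B, ISLR2 and EPHB3 (0.111 to 0.535); without day 5 replicate 2 for UNC5B (0.0688) and EPHB3 (0.389); without day 2 replicate 1 for EPHB3 (0.206); without day 2 replicate 2 for PLXNA2 (0.0853), UNC5B (0.198) and EPHB3 (0.0879). UNC5B also missed the threshold with DESeq2 (adjusted p = 0.127), which gave no adjusted p for ISLR2 and EPHB3.

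The BMP targets SMAD6 and ID3 fell. BMP ligands activate SMAD proteins, which switch on the ID genes and the inhibitor SMAD6 as feedback. SMAD6 had 24.7 and 23.1 CPM at day 5, against 41.3 and 51.9 CPM at day 2 (log2 fold change -0.99 ± 0.23, adjusted p = 0.0105). ID3, an inhibitor of basic helix-loop-helix factors, had 74 and 88.8 CPM at day 5, against 123 and 122 CPM at day 2 (log2 fold change -0.58 ± 0.14, adjusted p = 0.0168). Both days were well separated for each. Of 20 tested BMP and TGF-beta targets these 2 fell and none rose, with a median of -0.19, and 13 of the 20 had a negative value. BAMBI, a decoy receptor, had 9.72 and 11.6 CPM at day 5 and 24.3 and 24.7 CPM at day 2 (log2 fold change -1.19 ± 0.31, adjusted p = 0.053), and ID2 had 211 and 213 CPM at day 5 and 279 and 269.6 CPM at day 2 (log2 fold change -0.37 ± 0.11, adjusted p = 0.0982), and neither passed. Both calls depended on more than 1 library and were lost (adjusted p in brackets) without day 5 replicate 1 for SMAD6 (0.196) and ID3 (0.61); without day 5 replicate 2 for SMAD6 (0.177); without day 2 replicate 1 for ID3 (0.0932); without day 2 replicate 2 for SMAD6 (0.297) and ID3 (0.124). ID3 was not called by DESeq2 (adjusted p = 0.0969), which gave SMAD6 no adjusted p.

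The other 7 falls were genes of the membrane, the cytoskeleton, vesicles and signal adaptors. KCTD12, an auxiliary subunit of GABA-B receptors, had 209 and 234 CPM at day 5, against 386 and 313 CPM at day 2 (log2 fold change -0.64 ± 0.11, adjusted p = 0.00036), and the fit with the GC term kept the size (-0.64) but not the call (adjusted p = 0.162). AHNAK, a giant scaffold protein beneath the plasma membrane, had 164 and 184 CPM at day 5, against 234 and 249.8 CPM at day 2 (log2 fold change -0.47 ± 0.11, adjusted p = 0.0146). ENC1, an actin-binding kelch protein of the developing nervous system, had 47.8 and 52.3 CPM at day 5, against 88.9 and 81 CPM at day 2 (log2 fold change -0.75 ± 0.17, adjusted p = 0.00716). In these 3 genes the days did not overlap. STRA6, the cell-surface receptor that takes up retinol from its carrier protein, was at 53.1 and 60.2 CPM at day 5, against 88 and 101 CPM at day 2 (log2 fold change -0.74 ± 0.16, adjusted p = 0.00716). With RET, which retinoic acid is known to induce in neuroblastoma cells, it made up the 2 falls among 10 tested retinoid genes, and RARG was at 30.6 and 29.2 CPM at day 5 and 14.4 and 20.4 CPM at day 2 (log2 fold change 0.73 ± 0.27, adjusted p = 0.327). RPH3A, rabphilin, an effector of RAB3 on synaptic vesicles, had 78.5 and 95.4 CPM at day 5, against 130.3 and 150.2 CPM at day 2 (log2 fold change -0.69 ± 0.14, adjusted p = 0.00196). HMP19, a neuronal protein of endosomal trafficking, had 673 and 669 CPM at day 5, against 855 and 848 CPM at day 2 (log2 fold change -0.34 ± 0.08, adjusted p = 0.0197). SHD, an SH2-domain adaptor, had 118 and 123 CPM at day 5, against 168 and 176 CPM at day 2 (log2 fold change -0.51 ± 0.13, adjusted p = 0.0236). Every one of these day 5 levels lay under both day 2 levels. Dropping 1 library undid calls (adjusted p in brackets) without day 5 replicate 1 for KCTD12, AHNAK, ENC1, STRA6, RPH3A, HMP19 and SHD (0.0613 to 0.58); without day 5 replicate 2 for ENC1 (0.057), HMP19 (0.182) and SHD (0.145); without day 2 replicate 1 for KCTD12, ENC1, HMP19 and SHD (0.0517 to 0.103); without day 2 replicate 2 for AHNAK, STRA6, RPH3A, HMP19 and SHD (0.0879 to 0.208). By DESeq2, ENC1 (adjusted p = 0.0697), HMP19 (adjusted p = 0.0677) and SHD (adjusted p = 0.224) did not pass, and STRA6 and RPH3A had no adjusted p.

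MAOA and 2 genes of dense-core vesicles rose. MAOA, the mitochondrial oxidase that breaks down noradrenaline and serotonin, had 269 and 310.04 CPM at day 5, against 183 and 182 CPM at day 2 (log2 fold change 0.67 ± 0.11, adjusted p = 2.01e-05). The day 2 libraries were almost equal, and both day 5 libraries stood clear above them. MAOA was the 1 call among 14 tested genes of catecholamine synthesis, storage and uptake. Of these, 7 had a positive and 7 a negative value, and the median was 0.11. CYB561 of the same list stood lower without passing the test (log2 fold change -0.48, adjusted p = 0.0506). TH, the first enzyme of the pathway, had 293 and 258 CPM at day 5 and 195 and 228 CPM at day 2 (log2 fold change 0.37 ± 0.11, adjusted p = 0.127), and DBH, which makes noradrenaline from dopamine, had 827 and 821 CPM at day 5 and 610.04 and 794 CPM at day 2 (log2 fold change 0.22 ± 0.09, adjusted p = 0.421). The values of both were positive and neither passed, while DBH did pass without day 2 replicate 2 (adjusted p = 0.0186). Granins and neuropeptides fill the same dense-core vesicles, and 2 of 13 tested members rose. CARTPT, the precursor of the CART neuropeptides, had 35.9 and 24.9 CPM at day 5, against 8.98 and 13 CPM at day 2 (log2 fold change 1.39 ± 0.31, adjusted p = 0.00669). CHGB, the vesicle protein chromogranin B, had 249.6 and 235 CPM at day 5, against 152 and 184 CPM at day 2 (log2 fold change 0.51 ± 0.12, adjusted p = 0.0115). CHGA had 2643 and 2827 CPM at day 5 and 2424 and 2634 CPM at day 2 and did not pass (log2 fold change 0.11 ± 0.08, adjusted p = 0.786). The vesicle genes lost their calls (adjusted p in brackets) without day 5 replicate 1 for CARTPT (0.535) and CHGB (0.367); without day 5 replicate 2 for CHGB (0.0548); without day 2 replicate 1 for CARTPT (0.148) and CHGB (0.363). DESeq2 ended the call of CHGB (adjusted p = 0.301) and gave no adjusted p for CARTPT.

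STMN2, CNTNAP2, OLFM1 and KIF21B, genes of neuronal growth, adhesion and transport, rose. STMN2, a tubulin-binding protein of growth cones, had 734 and 594 CPM at day 5, against 513 and 469 CPM at day 2 (log2 fold change 0.44 ± 0.09, adjusted p = 0.00249). CNTNAP2, a neurexin-like adhesion protein that clusters potassium channels on axons, had 877 and 737 CPM at day 5, against 606 and 656 CPM at day 2 (log2 fold change 0.35 ± 0.09, adjusted p = 0.0233). OLFM1, a secreted olfactomedin of the nervous system, had 208 and 147 CPM at day 5, against 107 and 112 CPM at day 2 (log2 fold change 0.68 ± 0.13, adjusted p = 0.000938). KIF21B, a kinesin of neuronal transport, was at 67.3 and 58.4 CPM at day 5, against 35 and 38.3 CPM at day 2 (log2 fold change 0.76 ± 0.19, adjusted p = 0.0385). Replicate 1 held the higher day 5 value in all 4 genes. Of 52 tested genes of the neuronal cytoskeleton, adhesion and synapse, 2 rose and 1 fell, and the median was -0.01. The 4 calls did not hold (adjusted p in brackets) without day 5 replicate 1 for STMN2, CNTNAP2, OLFM1 and KIF21B (0.608 to 0.796); without day 5 replicate 2 for KIF21B (0.0749); without day 2 replicate 1 for CNTNAP2 (0.314) and KIF21B (0.252); without day 2 replicate 2 for STMN2 (0.121) and KIF21B (0.151). None of the 4 was called by DESeq2, with STMN2 (adjusted p = 0.0683), CNTNAP2 (adjusted p = 0.196) and OLFM1 (adjusted p = 0.0861) and no adjusted p for KIF21B.

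The imprinted genes DLK1, RTL1 and IGF2 rose. Imprinted genes are read from only the maternal or only the paternal copy, and several of them set fetal growth. DLK1, a membrane protein of the Delta family expressed from the paternal copy and known in immature neuroblasts, had 1456 and 1427 CPM at day 5, against 969 and 1143 CPM at day 2 (log2 fold change 0.44 ± 0.08, adjusted p = 0.00033). RTL1, a retrotransposon-derived gene also read from the paternal copy, had 208 and 216 CPM at day 5, against 124 and 177 CPM at day 2 (log2 fold change 0.47 ± 0.12, adjusted p = 0.0441), and lies 142 kb from DLK1 on chromosome 14. IGF2, the insulin-like growth factor II, had 484 and 422 CPM at day 5, against 258 and 376 CPM at day 2 (log2 fold change 0.49 ± 0.10, adjusted p = 0.00388). In all 3 genes day 2 replicate 1 was the lowest library. DLK1 and IGF2 were the 2 rises among 14 tested imprinted genes, with no fall and a median of 0.16. DLK1 was also the 1 call among 22 Notch pathway genes, and IGF2 the 1 call among 15 genes of the insulin-like growth factor axis, where IGF1R had 188 and 193 CPM at day 5 and 151 and 168 CPM at day 2 (log2 fold change 0.25 ± 0.11, adjusted p = 0.566). Calls among the 3 genes were lost (adjusted p in brackets) without day 5 replicate 1 for RTL1 (0.331) and IGF2 (0.414); without day 5 replicate 2 for RTL1 (0.328); without day 2 replicate 1 for DLK1 (0.0848), RTL1 (0.694) and IGF2 (0.565). The calls of IGF2 (adjusted p = 0.116) and RTL1 (adjusted p = 0.655) were also lost with DESeq2, which kept DLK1.

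The collagens COL6A2 and COL18A1 and the cadherin CDH13 rose. COL6A2, a chain of type VI collagen, had 52.3 and 61.4 CPM at day 5, against 19.8 and 29.1 CPM at day 2 (log2 fold change 1.18 ± 0.22, adjusted p = 0.000382). COL18A1, the basement-membrane collagen XVIII, had 57.5 and 37.1 CPM at day 5, against 25.2 and 22.9 CPM at day 2 (log2 fold change 0.96 ± 0.23, adjusted p = 0.0168). CDH13, a cadherin held by a lipid anchor, had the largest rise of the 52 genes, at low counts, with 18.7 and 13.4 CPM at day 5, against 2.7 and 5.56 CPM at day 2 (log2 fold change 1.83 ± 0.45, adjusted p = 0.0298). Of 18 collagens tested, a list written after the values were seen, these 2 rose and none fell, with a median of 0.50 against 0 for all genes. COL6A1 (0.49 ± 0.13, adjusted p = 0.0619) and COL1A1 (1.06 ± 0.31, adjusted p = 0.0995) did not pass. Of 33 mesenchymal and matrix genes tested, 1 rose and none fell, at a median of 0.10. The 10 fibroblast markers summed to 170 and 151 CPM at day 5, against 97.9 and 127 CPM at day 2, led by PDGFRB. The 6 of them that were tested all had positive values (median 0.75) without a call, while COL1A2, DCN, FAP and POSTN had no read in any of the 4 libraries. In bulk RNA, more cells of a kind and more RNA per cell cannot be told apart. The calls failed (adjusted p in brackets) without day 5 replicate 1 for COL18A1 (0.774) and CDH13 (0.595); without day 5 replicate 2 for COL6A2 (0.0525) and CDH13 (0.0507); without day 2 replicate 1 for COL18A1 (0.0742) and CDH13 (0.382); without day 2 replicate 2 for COL18A1 (0.214) and CDH13 (0.0904). DESeq2 gave no adjusted p for these 3 genes.

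The other 13 rises covered many functions. SESN3, a sestrin that FOXO factors induce and that restrains mTOR, had 435 and 412 CPM at day 5, against 337 and 293 CPM at day 2 (log2 fold change 0.43 ± 0.10, adjusted p = 0.00716). It was the 1 call among 25 genes of the FOXO and low growth factor response, where 17 values were positive and the median was 0.27. DNAJB1, an HSP40 co-chaperone and the 1 call among 20 heat shock genes, had 120.3 and 136 CPM at day 5, against 80.9 and 95.2 CPM at day 2 (log2 fold change 0.53 ± 0.14, adjusted p = 0.0385). Day 5 and day 2 were separate in both. FAM49A, which lies 644 kb from MYCN on chromosome 2, had 50.8 and 41.9 CPM at day 5, against 18.9 and 21 CPM at day 2 (log2 fold change 1.19 ± 0.23, adjusted p = 0.0012), while the other 6 tested genes of the MYCN region were not called and their list's median was -0.10. IRAK3, a brake on Toll-like and interleukin-1 receptor signals, had 20.9 and 20.1 CPM at day 5, against 5.39 and 6.8 CPM at day 2 (log2 fold change 1.70 ± 0.38, adjusted p = 0.00716). ARID5B, a chromatin regulator, had 23.9 and 22.5 CPM at day 5, against 7.19 and 9.27 CPM at day 2 (log2 fold change 1.45 ± 0.34, adjusted p = 0.0146). These last were low in counts at day 2, where the floor of 3 counts stood at 1.85 to 2.70 CPM. RHOU, an atypical small GTPase, had 86.7 and 77.2 CPM at day 5, against 49.4 and 49.5 CPM at day 2 (log2 fold change 0.72 ± 0.17, adjusted p = 0.016). B3GNT2, which builds poly-N-acetyllactosamine on glycans, had 30.6 and 27.4 CPM at day 5, against 18.9 and 8.66 CPM at day 2 (log2 fold change 1.16 ± 0.30, adjusted p = 0.0425). ARMCX2, KIAA1522, CYTH3 (an exchange factor for ARF GTPases), FRMD4B (a scaffold protein), GATC (a subunit of mitochondrial glutamyl-tRNA amidotransferase) and LIX1L complete the rises, with log2 fold changes of 0.59 to 0.93 and adjusted p of 0.00729 to 0.0498. Leaving out a library ended calls (adjusted p in brackets) without day 5 replicate 1 for SESN3, DNAJB1, FAM49A, IRAK3, ARID5B, RHOU, B3GNT2, ARMCX2, CYTH3, FRMD4B, GATC and LIX1L (0.167 to 0.724); without day 5 replicate 2 for DNAJB1, IRAK3, ARID5B, RHOU, B3GNT2, ARMCX2, KIAA1522 and FRMD4B (0.0532 to 0.51); without day 2 replicate 1 for DNAJB1, IRAK3, ARID5B, RHOU, ARMCX2, KIAA1522, CYTH3, FRMD4B and LIX1L (0.0927 to 0.429); without day 2 replicate 2 for SESN3, DNAJB1, IRAK3, ARID5B, RHOU, B3GNT2, ARMCX2, KIAA1522, CYTH3, FRMD4B, GATC and LIX1L (0.0674 to 0.62). Of these 13, DESeq2 called SESN3, did not call DNAJB1 (adjusted p = 0.234) and LIX1L (adjusted p = 0.301), and gave the others no adjusted p.

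**Figure D2:**
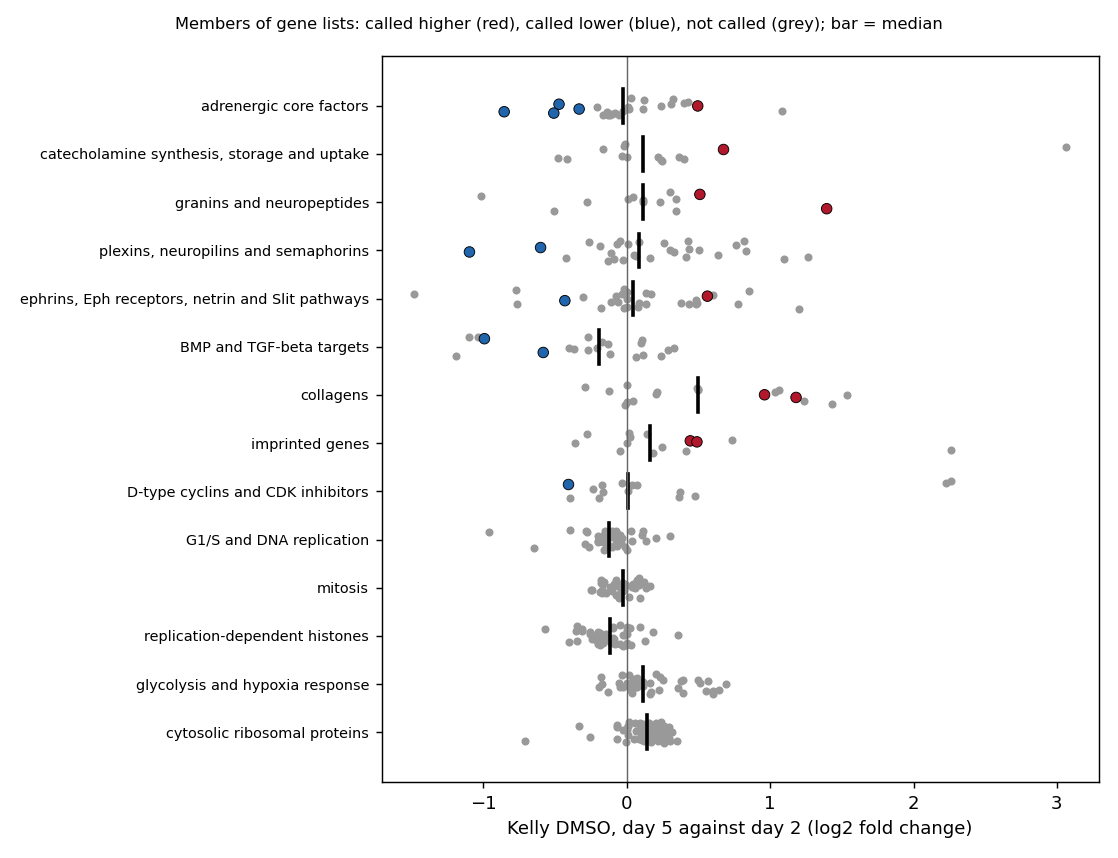
Log2 fold changes of day 5 against day 2 in Kelly cells in DMSO (x axis) for the tested members of 14 gene lists (rows), with called rises in red, called falls in blue and other genes in grey. Black bars are list medians, which lie between -0.19 for BMP and TGF-beta targets and 0.50 for collagens, and the called genes are few in every list.

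Genes of DNA replication and mitosis were not called. None of 48 genes of G1/S and DNA replication was called by edgeR or DESeq2, 6 had an unadjusted p under 0.05, and 40 of the 48 had a negative value (median -0.13). None of 43 mitosis genes was called by either tool, none had an unadjusted p under 0.05, and their median was -0.02. MKI67, the marker of cycling cells, had 769.8 and 900.3 CPM at day 5 and 809 and 887 CPM at day 2 (log2 fold change -0.02 ± 0.08, adjusted p = 0.993), and its sign turned without day 5 replicate 1 (0.08) or day 2 replicate 2 (0.05). CDKN1A, the CDK inhibitor p21, had 75.5 and 71.1 CPM at day 5 and 58.4 and 55.6 CPM at day 2 (log2 fold change 0.36 ± 0.17, adjusted p = 0.584). Among 49 replication-dependent histone genes none was called by edgeR or DESeq2, 10 had an unadjusted p under 0.05, and 40 values were negative (median -0.11). CCND1 was the 1 call among 15 D-type cyclins, partners and CDK inhibitors.

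Ribosomal protein, metabolic and stress lists held no call. Of 76 cytosolic ribosomal protein genes, 68 had a positive value (median 0.14) and 27 an unadjusted p under 0.05, but none was called by edgeR or DESeq2. Of 43 genes of glycolysis and the hypoxia response, 34 were positive (median 0.11), 4 had an unadjusted p under 0.05 and neither tool called any. VEGFA, a hypoxia target, had 74.7 and 74.2 CPM at day 5 and 79.96 and 89 CPM at day 2 (log2 fold change -0.19 ± 0.15, adjusted p = 0.833). The amino acid stress genes (42 tested, median 0.07, 3 at an unadjusted p under 0.05) and the genes of the unfolded protein response (24 tested, median 0.10, 1 at that p) held no call by either tool. The same held for sterol and fatty acid synthesis (38 tested, median -0.09, 6 at that p), p53 targets (28 tested, median -0.05, 4 at that p) and PRC2 and PRC1 subunits (29 tested, median 0.05, 1 at that p). EZH2, the target of the drug used elsewhere in the series, had 233 and 207 CPM at day 5 and 263 and 225 CPM at day 2 (log2 fold change -0.14 ± 0.11, adjusted p = 0.801) in these cells without the drug. Over all 11863 genes, 5876 values were positive and the median was 0.

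Of the Kelly falls, 13 were also called lower with time in LAN-1 cells in DMSO, whose libraries are separate from the Kelly ones. In LAN-1, 52 genes were called between day 5 and day 2, 14 higher (0.118%) and 38 lower (0.32%). The 13 shared genes are 54.2% of the Kelly falls and 34.2% of the LAN-1 falls, and 22 of the 24 had a negative value in LAN-1 (median -0.50). The shared genes were EGFR and DOK4, the transcription factors HAND1, GATA2, TBX2, TBX3 and CUX2, the guidance receptors PLXNA2, PLXNA4 and UNC5B, and SMAD6, AHNAK and KCTD12. With DESeq2, 11 of the 24 Kelly falls were called lower in LAN-1. PLXNA4 in LAN-1 had 7.66 and 12.6 CPM at day 5, against 39.1 and 21.7 CPM at day 2 (log2 fold change -1.62 ± 0.31, adjusted p = 0.000516). EGFR had 111 and 113 CPM at day 5, against 204 and 171 CPM at day 2 (log2 fold change -0.74 ± 0.12, adjusted p = 2.11e-05). KCTD12 had 386 and 459 CPM at day 5, against 1053 and 973 CPM at day 2 (log2 fold change -1.27 ± 0.10, adjusted p = 2.88e-17). Each was lower in both LAN-1 libraries of day 5 than in both of day 2. SMAD6 in LAN-1 had 27.2 and 39.5 CPM at day 5, against 83.9 and 72 CPM at day 2 (log2 fold change -1.25 ± 0.19, adjusted p = 3.72e-06), and AHNAK had 345 and 345 CPM at day 5, against 784 and 701 CPM at day 2 (log2 fold change -1.11 ± 0.09, adjusted p = 2.95e-18). RET was lower in LAN-1 without a call (89.8 and 79 CPM at day 5, against 111 and 112 CPM at day 2, log2 fold change -0.39 ± 0.14, adjusted p = 0.323).

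None of the Kelly rises was called in LAN-1. Of the 28 genes higher in Kelly at day 5, edgeR and DESeq2 called none higher in LAN-1, 3 had an unadjusted p under 0.05 there in that direction, 18 had a positive value and the median was 0.13. Mean levels in LAN-1 DMSO libraries were under 5 CPM for 6 of the 28, against 1 of the 24 falls. MAOA had 68.9 and 71.4 CPM at day 5, against 69.2 and 82.2 CPM at day 2 in LAN-1 (log2 fold change -0.11 ± 0.16, adjusted p = 0.947), and IGF2 had 149 and 135 CPM at day 5, against 152 and 147 CPM at day 2 (log2 fold change -0.07 ± 0.13, adjusted p = 0.963). A test of the difference between the lines called 3 of the 11863 genes (0.0253%), 1 with the higher change in Kelly (0.00843%) and 2 with the lower (0.0169%). Differences are the Kelly log2 fold change minus the LAN-1 one. HMGCS1, an enzyme of sterol synthesis, had 192 and 204 CPM at day 5 and 269 and 252 CPM at day 2 in Kelly and 809.9 and 949 CPM at day 5, against 708 and 742 CPM at day 2 in LAN-1 (difference -0.67 ± 0.14, adjusted p = 0.022). NEDD9, a scaffold protein of focal adhesions, had 43.3 and 40.1 CPM at day 5 and 28.8 and 29.1 CPM at day 2 in Kelly and 20.2 and 25.2 CPM at day 5, against 44.8 and 47.5 CPM at day 2 in LAN-1 (difference 1.56 ± 0.32, adjusted p = 0.022). Leaving out each of the 8 DMSO libraries in turn kept the call of NEDD9 in 1 case and that of HMGCS1 in 2, with adjusted p of up to 0.394 (HMGCS1, without LAN-1 day 5 replicate 2) and 0.249 (NEDD9, without LAN-1 day 5 replicate 1). None of the 28 rises was called as differing between the lines by edgeR or DESeq2, and 13 had an unadjusted p under 0.05 for that difference. The rises were chosen by the Kelly change, which is part of the difference, so the choice itself raises the count of 13. No conclusion on a difference between the lines is drawn from it.

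**Figure D3:**
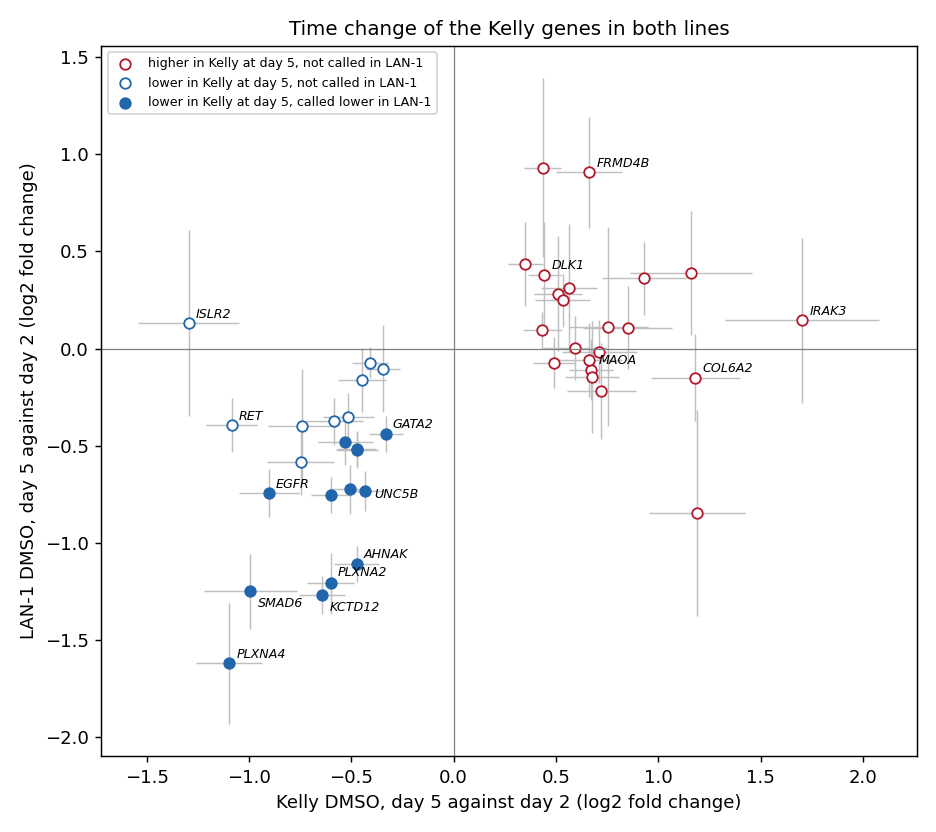
Log2 fold changes of day 5 against day 2 in DMSO in Kelly (x axis) and LAN-1 (y axis) for 44 of the genes called in Kelly, with genes under a mean of 5 CPM in LAN-1 left out, and crosses of ± 1 SE. Filled points are genes also called lower in LAN-1, all of them among the Kelly falls, and some points carry their gene's name.

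For 12 of the 52 genes, the change with time was called as differing between GSK126 and DMSO, against 45 of all 11863 genes (0.379%). The 52 were chosen by the DMSO change, which is part of that difference, so the choice itself raises their share. The time change with GSK126 also shares no library with the one in DMSO. Between day 5 and day 2 of GSK126, 349 genes were called (2.94%), 237 higher (2%) and 112 lower (0.944%). Of the 28 rises in DMSO, 4 were called higher with GSK126 (14.3%: KIF21B, STMN2, MAOA and SESN3) and 3 were called lower (IGF2, DLK1 and RTL1). Of the 24 falls in DMSO, 4 were called lower with GSK126 (16.7%, among them GATA2, TBX3 and SHD) and 3 were called higher (PLXNA4, AHNAK and KCTD12). DESeq2 called 3 of the 28 rises higher and 3 of the 24 falls lower with GSK126. MAOA had 280.3 and 257 CPM at day 5, against 182 and 184 CPM at day 2 with GSK126 (log2 fold change 0.55 ± 0.11, adjusted p = 0.000244), and the difference of the time changes was 0.12 ± 0.15 (adjusted p = 0.946). GATA2 had 1031 and 909.7 CPM at day 5, against 1304 and 1263 CPM at day 2 with GSK126 (log2 fold change -0.40 ± 0.08, adjusted p = 0.000746), with a difference of 0.07 ± 0.12 (adjusted p = 0.962).

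A test of the difference between the time change in DMSO and that with GSK126 called 45 genes (0.379%), with the DMSO change higher for 21 and lower for 24. Differences are the log2 fold change in DMSO minus that with GSK126. Among these 45 were 5 of the 24 falls (RET, PLXNA4, KCTD12, AHNAK and ENC1) and 7 of the 28 rises (DLK1, RTL1, IGF2, OLFM1, INSM2, CARTPT and CNTNAP2). Both counts are raised by the choice of the falls and rises in DMSO. DESeq2 called the difference between DMSO and GSK126 for 4 of the 24 falls and 4 of the 28 rises. PLXNA4 with GSK126 had 232 and 229.9 CPM at day 5, against 152 and 135 CPM at day 2 (log2 fold change 0.68 ± 0.12, adjusted p = 3.43e-05), a difference of -1.78 ± 0.20 (adjusted p = 3.37e-11). RET with GSK126 had 234 and 205 CPM at day 5, against 229.6 and 246 CPM at day 2 (log2 fold change -0.12 ± 0.11, adjusted p = 0.7), a difference of -0.96 ± 0.16 (adjusted p = 4.61e-05). DLK1 with GSK126 had 740.2 and 681 CPM at day 5, against 1171 and 1129 CPM at day 2 (log2 fold change -0.70 ± 0.08, adjusted p = 2.17e-10), a difference of 1.14 ± 0.12 (adjusted p = 4.65e-13). PLXNA4 thus fell in DMSO and rose with GSK126, and DLK1 rose in DMSO and fell with GSK126, while RET fell in DMSO and was not called with GSK126. IGF2 with GSK126 had 179.5 and 159 CPM at day 5, against 335 and 316 CPM at day 2, and RTL1 had 86.1 and 96.2 CPM at day 5, against 157 and 169 CPM at day 2. The differences were 1.44 ± 0.16 and 1.30 ± 0.18 (adjusted p = 2.08e-11 and 2.05e-07). The differences of RET, PLXNA4, KCTD12, AHNAK, DLK1, RTL1, IGF2 and INSM2 were called whichever of the 8 Kelly libraries was left out. Those of ENC1, OLFM1, CARTPT and CNTNAP2 were not, with adjusted p of up to 0.0595 (ENC1, without GSK126 day 2 replicate 1), and 0.166 (OLFM1), 0.166 (CARTPT) and 0.374 (CNTNAP2) without DMSO day 5 replicate 1.

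**Figure D4:**
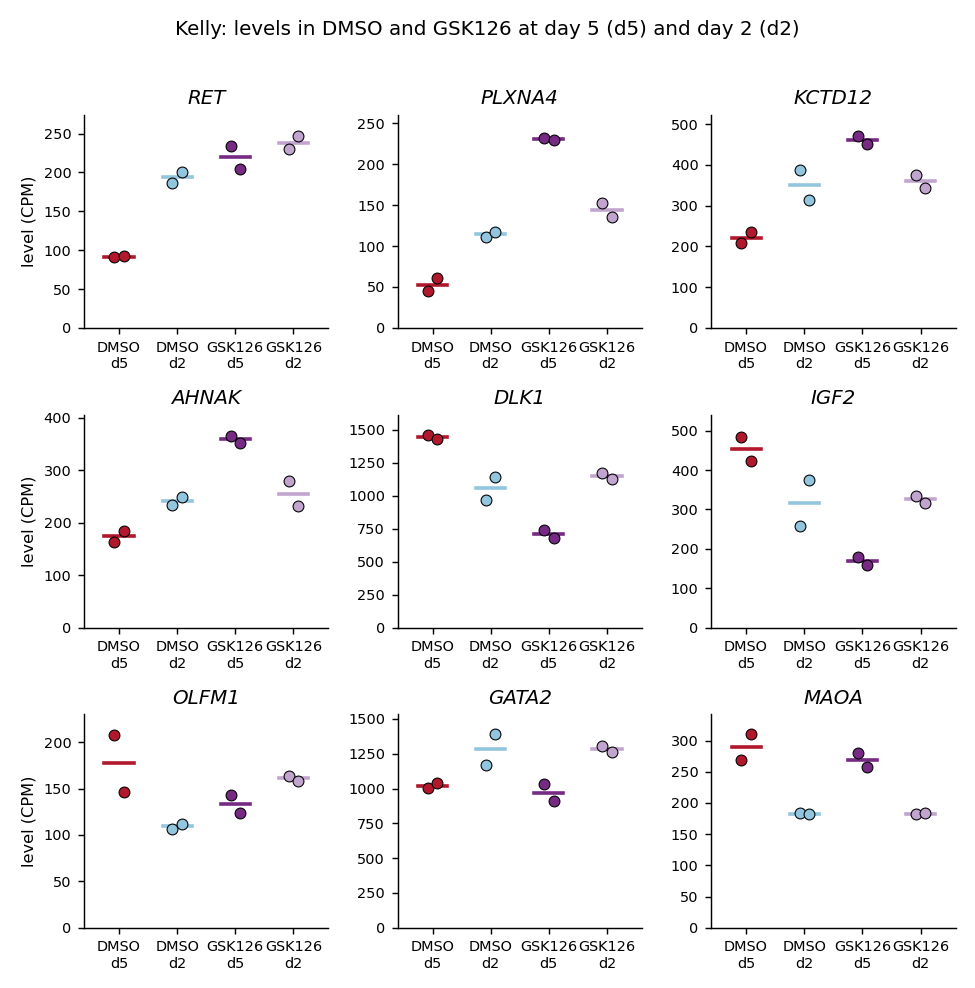
Levels in CPM (linear axes that start at 0) of 9 genes in the 4 groups of Kelly libraries, DMSO and then GSK126, each at day 5 (d5) and day 2 (d2), with points for libraries and bars for means of 2. RET, PLXNA4, KCTD12 and AHNAK are lowest in DMSO at day 5, DLK1 and IGF2 are highest there, and MAOA is higher at day 5 under both.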

How the data were processed

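RNA was extracted with a column kit and sequenced, per the labels' protocols. The deposited table holds whole-number counts per gene symbol, 1 column per library and 25728 symbols, with no normalization. The submitters' processing notes name GRCh37 (hg19) with the tools TopHat2, featureCounts and FastQC. Versions, annotation, strand setting and the handling of multi-mapping reads are not given in the sources used here. Library totals in the 4 Kelly DMSO libraries ran from 1102922 to 1666190 counts. Floors cover counting error only, and no molecular identifiers are named in the labels.

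The counts were fitted with edgeR 4.0.16 in R 4.3.3. The filterByExpr rule, with its minimum count set to 10 and applied to the 8 groups, left 11863 genes. TMM scaled the libraries (factors 0.977 to 1.03). The robust quasi-likelihood fit had a mean for each group over the 16 libraries and 8 residual degrees of freedom (common biological coefficient of variation 5.31%). The contrasts were day 5 minus day 2 in Kelly DMSO, the same change in LAN-1 DMSO and in Kelly GSK126, and the difference of the first from each of these. P-values were adjusted by Benjamini-Hochberg over all genes kept. CPM is the count per 1e+06 of the TMM-scaled total. The scripts were tested on simulated data, where 43 of 100 genes changed 1.5-fold and 79 of 100 changed 2-fold were called, with 6 false calls. A gene without a call may therefore still have changed. The simulated duplicates shared 1 mean per gene and held no GC-linked difference, unlike the real day 2 duplicates. Hence the simulation checks the scripts and does not give the rate of false or missed calls in these data.

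Named genes were the 15 largest called rises and 15 largest called falls with a mean of at least 10 CPM, up to 4 called members per list, fixed genes (among them EZH2, MYCN, TH, DBH, MKI67, CDKN1A and VEGFA) and up to 6 genes per difference. This named 53 genes, a few of which are not reported here. The other called genes (TBX3, UNC5B, AHNAK, HMP19, EPHB3, CYTH3, FRMD4B, GATA2, LIX1L and MAP3K1) and the list members given without a call were chosen after their values were seen. The members and the 41 gene lists were chosen with earlier results of these data known, and 6 further lists after the values were seen. Positions came from GENCODE 44 lifted to GRCh37 (21873 symbols matched directly, 1441 by a synonym), and promoters from RefSeq. Alternatives were DESeq2 1.42.0, other scalings, no filter, fewer libraries, each library left out, the replicate number as a block, and a per-library loess correction on gene GC content (span 0.3).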

Additional observations from a re-analysis of the deposited data

Results flagged for a closer look

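By a test of the difference over all genes, the change with time was called as differing between the lines for HMGCS1 and NEDD9, but the calls were not stable. Kelly minus LAN-1 in DMSO was -0.67 for HMGCS1 and 1.56 for NEDD9 on the log2 scale. With each of the 8 DMSO libraries left out in turn, HMGCS1 was called in 2 fits and NEDD9 in 1, and neither DESeq2 nor the fit with the replicate block called any gene for this difference.

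The change with time differed between DMSO and GSK126 in Kelly for several named genes by the same kind of test. DMSO minus GSK126 was positive for the imprinted genes DLK1 (1.14), IGF2 (1.44) and RTL1 (1.30), and for OLFM1 (0.95), INSM2 (0.82), CARTPT (1.98) and CNTNAP2 (0.54). It was also positive for the noradrenaline enzymes TH (1.02) and DBH (1.17), neither of which was called within DMSO. TH with GSK126 had 126 and 141 CPM at day 5, against 209 and 212 CPM at day 2, and DBH had 352 and 312 CPM at day 5, against 645 and 629 CPM at day 2. The difference was negative for PLXNA4 (-1.78), RET (-0.96), KCTD12 (-1.001), AHNAK (-0.96), ENC1 (-1.03) and PLK2 (-1.46). PLK2, a polo-like kinase of stress and synaptic responses, had 79.2 and 83.3 CPM at day 5 and 119 and 111 CPM at day 2 in DMSO (log2 fold change -0.49 ± 0.14, adjusted p = 0.108) and 239 and 224 CPM at day 5, against 125 and 111 CPM at day 2 with GSK126. The differences of TH, DBH and PLK2 were called whichever of the 8 Kelly libraries was left out.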

How the results depend on the processing

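The count of 52 genes called between day 5 and day 2 in Kelly DMSO was 108 with the GC term, 102 with the GC term and the replicate block, and 15 with DESeq2, which gave 330 at an unadjusted p under 0.05. It lay between 8 and 40 with 1 library left out, lowest without day 5 replicate 1. Other scalings, no filter, no robust fit and fewer libraries gave 40 to 67. The replicate block gave 42, of which 41 were among the 52. With 2 pairs the replicate numbers were not taken to pair the samples, and deviations of same-numbered libraries correlated at 0.0948 over 10026 genes. The 3 genes that differed between the lines became 7 in the 8 DMSO libraries alone, which are the libraries of that contrast, 17 with the GC term and 11 with the GC term and the block. They became 0 with the block (670 at an unadjusted p under 0.05) and 0 with DESeq2 (250 at that p), and 0 to 12 with 1 library left out: 0 without Kelly day 5 replicate 1, LAN-1 day 2 replicate 1, LAN-1 day 2 replicate 2 or LAN-1 day 5 replicate 2 (641, 600, 739 and 609 at an unadjusted p under 0.05), 1 without Kelly day 2 replicate 1 or LAN-1 day 5 replicate 1, and 12 without Kelly day 2 replicate 2. The 45 genes that differed between DMSO and GSK126 became 14 with DESeq2 and 22 to 41 with 1 library left out, with 22 and 29 without DMSO day 5 replicate 1 and day 2 replicate 1, and 24 to 26 without GSK126 day 5 replicate 2 or either GSK126 day 2 library. The log2 fold change of MKI67 turned positive without day 2 replicate 2 (0.05) or day 5 replicate 1 (0.0842), within a range of -0.14 to 0.0842 with 1 library left out. The causes were not tested. DESeq2 gave no adjusted p for some named genes, which are left without one. Depth limits low genes, since 3 counts are 1.82 to 2.70 CPM.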

Other observations

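With the per-library GC term, further members of lists described above were called in Kelly DMSO between day 5 and day 2 (log2 fold change and adjusted p in brackets). Adrenergic core factors then held 4 rises and 4 falls among 25 tested, where HAND2 (0.26, 0.0172), EYA1 (0.43, 0.0117) and TFAP2B (0.31, 0.048), factors of sympathetic and neural crest development, joined INSM2. Genes of catecholamine synthesis, storage and uptake held 1 rise and 1 fall of 14, the fall being CYB561 (-0.52, 0.00178). BMP and TGF-beta targets held 4 falls of 20, with ID2 (-0.40, 0.00541) and BAMBI (-1.21, 0.0198) joining SMAD6 and ID3. Cytosolic ribosomal proteins held 6 rises and no fall of 76, among them RPL7A (0.28, 0.00243), and replication-dependent histones held 4 falls and no rise of 49, among them HIST1H2BO (-0.40, 0.00319). In the MYCN region, MYCN (-0.21, 0.0414) and its antisense partner MYCNOS (-0.53, 0.0195) were called lower, and reads of these overlapping genes may be shared. Without the GC term, HAND2, EYA1, TFAP2B, CYB561, ID2, BAMBI, RPL7A, HIST1H2BO, MYCN and MYCNOS were not called. With it, the 54 rises and 54 falls were each 0.455% of the 11863 genes.

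Without the GC term, 5 further lists held no call by edgeR or DESeq2. The 73 nuclear-encoded respiratory chain genes had a median of 0.01 with 2 at an unadjusted p under 0.05, and the 40 lysosome and autophagy genes a median of 0.05 with 4. The 18 BCL2 family genes had a median of 0.07 with 1 at that p, the 11 interferon-stimulated genes a median of 0 with 1, and the 12 antigen presentation genes a median of 0.20 with 3.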
